A study of Mus musculus with 20 samples.

Results

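Genes known from Schwann cells and other glia were followed through 20 poly(A) RNA-seq libraries of melb-a cells, a mouse melanoblast line. The 8 members, Mbp, Pmp22, Ncam1, Ngfr, S100b, Cdh19, Fabp7 and Cnp, were chosen by name and each had 1 row among the 29956 gene rows. All cells were labelled wild type and grown in medium with 10% serum, 10 ng/ml SCF and 40 pM Fgf2. Parental cells received no virus. The other groups carried a lentiviral short hairpin RNA against luciferase (shLuciferase), a scrambled hairpin (shScramble), or 1 of the hairpins shHIRA I and shHIRA II, which target Hira, a histone chaperone gene. For these the labels' protocols give 16 h with virus and 8 µg/ml polybrene, then selection in 1 µg/ml puromycin. Each group had 4 libraries, which the design text calls independent. The line is a single immortal line, so p-values measure the spread between its cultures, and in bulk RNA fewer cells with a transcript and less of it per cell cannot be told apart.

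Schwann cells and melanocytes both come from the neural crest, and melanoblasts can arise from Schwann cell precursors along growing nerves. Genes of the 2 lineages therefore overlap. S100b, Cdh19 and Erbb3 are known from both, whereas compact myelin and its proteins belong to mature glia. In myelin, Pmp22 is a membrane protein with several membrane spans, Mbp joins the cytoplasmic faces of the membrane, and Cnp is an enzyme of the uncompacted layers. Ncam1 and Cdh19 are adhesion molecules, S100b binds calcium, Fabp7 carries fatty acids in immature glia, and Ngfr is the p75 neurotrophin receptor of neural crest cells.

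Libraries held 14.95 to 20.7 M estimated counts (M, counts in 1e6), and 13541 genes passed the filter. Hira, the targeted gene, was lower with shHIRA I, at 36.8 ± 8.46 CPM (counts in each 1e6 of the TMM-scaled library; SD, n = 4), against 78.2 ± 12.4 CPM with shLuciferase and 74.1 ± 7.80 CPM with shScramble. With shHIRA II it stood at 66.8 ± 4.12 CPM and did not pass the test (−0.19, adjusted p = 0.306), so each direction below belongs to the libraries labelled shHIRA II. Transcripts of Gm28539 share 43.1% of Hira's 31-base words, which leaves the split of its reads uncertain. Mitochondrial mRNA took 2.88 to 4.71% of counts with shHIRA II and 1.23 to 9.58% with shHIRA I, against 6.43 to 9.96% in the 8 control shRNA libraries. It was lowest in shHIRA I replicate 3 (1.23%) and shHIRA II replicate 2 (2.88%).

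Most markers of the melanocyte lineage were present, given here in TPM, an abundance per transcript length scaled within each library. Mlana had a median of 1178 TPM over the 20 libraries, Tyrp1 1057 TPM and Mitf 131 TPM. Ednrb reached at most 0.0541 TPM, and Sox10 was listed at a median of 0.0758 TPM, with single libraries from 0.00016 to 11.2 TPM; no direction is given for it. Of 11 markers that define Schwann cells, Erbb3 (37.0 TPM) and Cdh19 (23.8 TPM) had clear median levels. The myelin gene Mag (0.695 TPM) and the myelin transcription factor Egr2 (0.441 TPM) stayed low, as did the filament gene Gfap (1.10 TPM). Gap43 and Gfra3, both of immature Schwann cells, reached at most 0.210 and 0.0794 TPM. The summed Schwann defining markers ran from 100.02 to 157 TPM in the control shRNA libraries, 41.6 to 154 TPM with shHIRA I and 59.8 to 87.1 TPM with shHIRA II.

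Per transcript length the members spanned a wide range. The median over the 8 control shRNA libraries was 236 TPM for S100b, 67.0 TPM for Mbp, 62.2 TPM for Ncam1, 28.0 TPM for Cdh19, 24.5 TPM for Cnp and 17.4 TPM for Fabp7. Pmp22, at 0.150 TPM, and Ngfr, at 0.0265 TPM, were close to the limit of the data. Of the members, 6 had enough counts in every library, Pmp22 passed the filter only through the shHIRA libraries, and Ngfr did not pass.

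**Figure D1:**
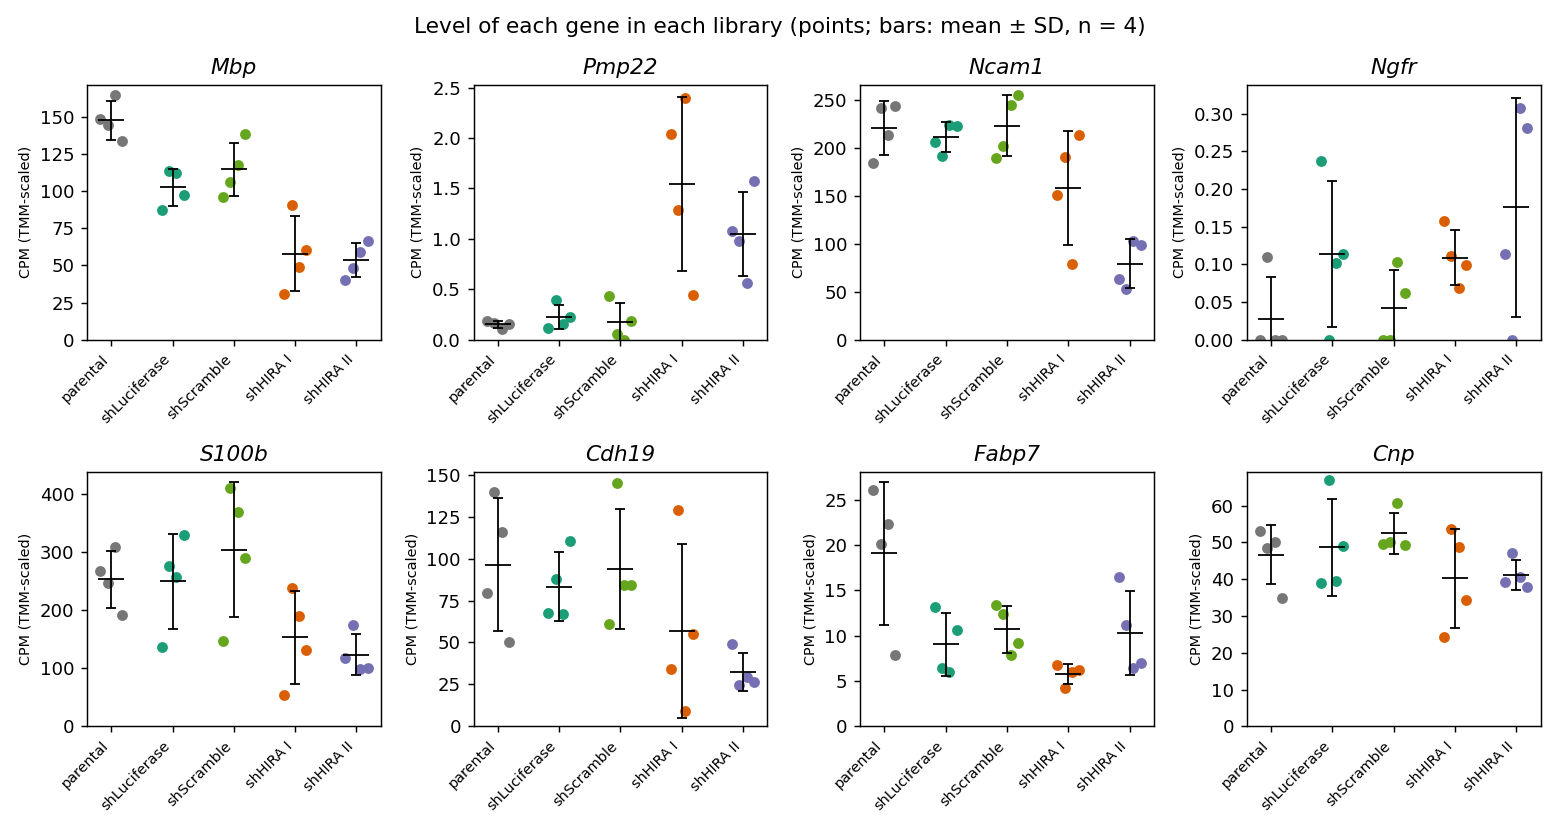
Level of each of the 8 genes in every library, in TMM-scaled CPM on linear axes that start at 0 and differ between panels; points are libraries, bars the mean ± SD of 4. Pmp22 lies between 0 and 0.435 CPM in the 12 libraries without a Hira hairpin and between 0.445 and 2.39 CPM in the 8 with one, while Mbp is at or below 91.1 CPM in the shHIRA groups.

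Against the control shRNA groups, Pmp22 was higher and Mbp, Ncam1, S100b and Cdh19 were lower when both shHIRA groups were pooled. Cnp and Fabp7 did not pass. Of the 7 members tested, 1 rose and 4 fell by edgeR's quasi-likelihood test (Benjamini-Hochberg adjusted p under 0.05 over all genes). In that comparison 29.3% of all 13541 genes were called, 14.2% higher and 15.1% lower. The 7 members' median log2 fold change was −0.95, against 0.03 over all genes tested. With shHIRA I, Pmp22 rose and Mbp fell, 2 of 7 members where 19.7% of all genes were called, 10.9% higher and 8.87% lower. In the libraries labelled shHIRA II, Pmp22 rose and Mbp, Ncam1, S100b and Cdh19 fell, 5 of 7 where 32.4% of all genes were called, 15.7% higher and 16.7% lower. Both hairpin comparisons share the same 8 control libraries. The members had been chosen with earlier results of these data known, and the count includes Pmp22, which could pass the filter only by being high, so neither count stands as support. With the mitochondrial share as a covariate the count was 3 pooled (1 higher and 2 lower) and 2 for the hairpin labelled shHIRA II (both lower). Without the 2 libraries of lowest mitochondrial share the pooled count was again 1 higher and 4 lower.

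Pmp22 (chromosome 11, 63128982 to 63159547, plus strand, GRCm38, ENSMUSG00000018217.12, protein-coding) is the peripheral myelin gene whose dosage underlies inherited neuropathies, and it is also known as a growth-arrest gene outside nerve. RefSeq gives it 4 start windows of 300 bases (GRCm38.p6), and the gene-level counts cannot say which start was used. The first and the last differ in CG dinucleotides, 3 and 30, where the median of 32851 RefSeq promoter windows was 7. They are shown because Pmp22 was the single member called higher. Each window runs from 250 bases before to 50 after a start, with CG in capitals. The first lies at chr11:63128732-63129031 and the last at chr11:63132553-63132852, both on the plus strand.
Pmp22 first start: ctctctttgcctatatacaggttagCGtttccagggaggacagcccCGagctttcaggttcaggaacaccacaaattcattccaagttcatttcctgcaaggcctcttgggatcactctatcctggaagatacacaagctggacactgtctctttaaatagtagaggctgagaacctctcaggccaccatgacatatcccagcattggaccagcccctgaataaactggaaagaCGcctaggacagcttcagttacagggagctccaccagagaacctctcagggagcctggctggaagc
Pmp22 last start: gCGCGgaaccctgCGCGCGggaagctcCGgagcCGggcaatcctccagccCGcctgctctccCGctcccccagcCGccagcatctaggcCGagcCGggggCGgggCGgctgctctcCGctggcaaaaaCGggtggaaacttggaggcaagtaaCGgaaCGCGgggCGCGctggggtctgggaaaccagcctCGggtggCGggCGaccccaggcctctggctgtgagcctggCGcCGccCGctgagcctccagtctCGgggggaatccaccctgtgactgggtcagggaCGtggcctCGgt

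Pmp22 was nearly silent without a Hira hairpin. Parental libraries 1 to 4 stood at 0.184, 0.165, 0.104 and 0.154 CPM. Those with shLuciferase stood at 0.119, 0.396, 0.153 and 0.228 CPM, and those with shScramble at 0.435, 0.0568, 0 and 0.187 CPM. With shHIRA I the values were 2.04, 1.28, 2.39 and 0.445 CPM, and with shHIRA II 1.08, 0.979, 0.564 and 1.57 CPM. The 8 shHIRA libraries thus lay above the 8 control shRNA libraries without overlap. Such a separation held for 3.9% of all genes, 1.73% higher and 2.17% lower. For shHIRA I alone it held for 9.14% (4.62% higher and 4.52% lower). The margin was narrow, as shHIRA I replicate 4 (0.445 CPM) stood just above shScramble replicate 1 (0.435 CPM). In estimated counts these libraries held at most 7.87 without and 9.48 to 39.0 with a Hira hairpin, so the size of the change is imprecise. Because Pmp22 passed the filter on low counts only through 7 shHIRA libraries, its changes are given as a description, without p, and nothing is read from its calls or its separation. The fitted pooled change was 2.66 on the log2 scale (SE 0.49), 6.30-fold. With shHIRA I it was 2.93 (SE 0.54). The libraries labelled shHIRA II gave 2.38 (SE 0.55). The hairpins differed by −0.55 (95% interval −1.85 to 0.75). Pmp22 was called higher in each of the 4 pairings of 1 hairpin against Hira with 1 control hairpin, as were 1.88% of all genes. These pairings share libraries and fall under the same limit of the filter, so they are not support either. With the mitochondrial share as a covariate the change in the libraries labelled shHIRA II was 2.00 and was no longer called. Even in its highest library Pmp22 stayed at or below 1.86 TPM. None of its 31-base words occurred in transcripts of another gene.

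The relatives of Pmp22, the epithelial membrane proteins, moved in either direction. Emp1 fell by 0.93 in the pooled comparison (adjusted p = 0.0122) and by 1.26 with shHIRA I (adjusted p = 0.0116). Emp3 fell by 0.44 (adjusted p = 0.00818), and in the libraries labelled shHIRA II by 0.77. Emp2 rose by 0.99 with shHIRA I (adjusted p = 0.00209) and stood at −0.38 in the libraries labelled shHIRA II. Of the 7 genes listed for this family, Pmp22 included, 5 were tested.

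Mbp, the myelin basic protein gene (chromosome 18, 82475146 to 82585637, plus strand, GRCm38, ENSMUSG00000041607.17), fell with either hairpin. The locus also makes golli transcripts from an upstream start, known from cells outside myelin. GENCODE M21 lists 16 transcripts for the gene, and which of them its 1 row sums is not given in the sources used here. Parental libraries 1 to 4 stood at 149, 144, 165 and 134 CPM. The shLuciferase libraries stood at 87.7, 114, 112 and 97.6 CPM, and the shScramble libraries at 96.4, 107, 118 and 139 CPM. With shHIRA I they stood at 30.7, 91.1, 48.9 and 60.5 CPM and with shHIRA II at 40.4, 48.0, 59.0 and 66.5 CPM. All shHIRA II libraries were below every control shRNA library, a separation that held for 24% of all genes, 11.3% higher and 12.7% lower. Replicate 2 of shHIRA I alone reached into the control range.

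The pooled change of Mbp was −0.97 on the log2 scale (SE 0.17, adjusted p = 0.000314), to 51.2% of control. With shHIRA I it was −0.91 (SE 0.21, adjusted p = 0.00467). The libraries labelled shHIRA II gave −1.02 (SE 0.21, adjusted p = 0.00131), and the hairpins differed by −0.11 (interval −0.61 to 0.39). Mbp was called lower in each of the 4 pairings of 1 hairpin against Hira with 1 control hairpin, as were 2.46% of all genes. The control shRNA groups were themselves at 73.4% of parental cells (−0.45, SE 0.20), which did not pass over all groups (adjusted p = 0.253) and passed when the fit held only the groups compared (adjusted p = 0.0322). Against parental cells the shHIRA groups stood at 37.6% (−1.41, adjusted p = 7.55e-05). The pooled call held with each library left out in turn, with log2 fold changes from −1.12 to −0.86.

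Cnp, the myelin phosphodiesterase gene (chromosome 11, 100574904 to 100591729, plus strand, ENSMUSG00000006782.16), changed little. Its mean was 48.6 ± 13.1 CPM with shLuciferase, 52.5 ± 5.59 CPM with shScramble, 40.3 ± 13.4 CPM with shHIRA I, 41.2 ± 4.12 CPM with shHIRA II and 46.7 ± 8.04 CPM in parental cells (SD, n = 4 each). Its shHIRA I libraries overlapped every other group, whereas those with shHIRA II (37.9 to 47.2 CPM) lay below those with shScramble (49.4 to 60.9 CPM) and overlapped those with shLuciferase. The pooled change was −0.31 (95% interval −0.64 to 0.02, adjusted p = 0.139), so a fall of moderate size lies within the interval. Without shHIRA I replicate 2 it was −0.40 and passed (adjusted p = 0.0498).

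**Figure D2:**
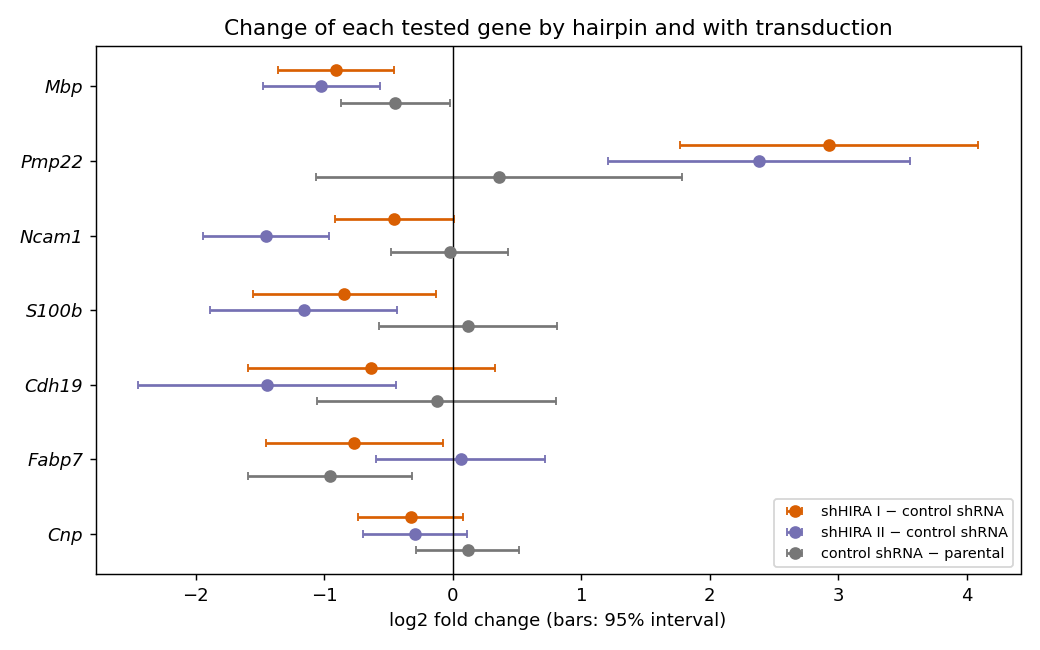
Log2 fold change of the 7 tested genes with 95% intervals: each shHIRA group against the averaged control shRNA groups, and the control shRNA mean minus parental cells. Pmp22 lies at 2.93 and 2.38, Mbp at −0.91 and −1.02, and Ncam1 at −0.46 and −1.45 for shHIRA I and shHIRA II.

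Other myelin genes moved in either direction. Of 18 listed genes beside Mbp, Pmp22 and Cnp, 12 were tested, and in the pooled comparison 4 fell and 2 rose (median −0.39), not all of them named here. Over all genes 15.1% were called lower and 14.2% higher there. Gjb1, the connexin of Schwann cells, fell by 2.59 (adjusted p = 6.48e-07), and Pmp2, a myelin fatty acid binding protein, fell by 1.65 (adjusted p = 4.20e-05). Prx, the periaxin gene of the Schwann cell membrane, rose by 1.56 (adjusted p = 7.40e-05). Its mean was 8.63 CPM with shLuciferase, 8.82 CPM with shScramble, 25.8 CPM with shHIRA I and 25.7 CPM with shHIRA II. Cldn19, a tight junction gene, rose by 1.19 (adjusted p = 0.0263) at mean levels at or below 1.69 CPM. Fa2h, which makes hydroxylated myelin lipids, rose by 1.18 in the libraries labelled shHIRA II (adjusted p = 0.0132). Sirt2, a deacetylase of myelinating glia, was the single call of 5 tested genes in a list of central myelin genes that includes Cnp pooled (−0.56, adjusted p = 0.00154), and Tspan2, a tetraspanin, rose by 0.67 with shHIRA I (adjusted p = 0.0464).

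Ncam1, the neural cell adhesion molecule (chromosome 9, 49502136 to 49798925, minus strand, ENSMUSG00000039542.16), separated the hairpins. Parental libraries 1 to 4 stood at 183, 241, 213 and 244 CPM, shLuciferase at 206, 191, 224 and 222 CPM, and shScramble at 190, 201, 245 and 255 CPM. With shHIRA I they stood at 150, 190, 78.2 and 213 CPM, so that 2 libraries lay within the control range and replicate 3 far below it. With shHIRA II they stood at 62.8, 52.5, 102 and 98.9 CPM, all below every control shRNA library. Such a separation held for 24% of all genes with that hairpin, 11.3% higher and 12.7% lower.

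The change of Ncam1 was −1.45 in the libraries labelled shHIRA II (SE 0.23, adjusted p = 0.000123), to 36.6% of control. With shHIRA I it was −0.46 (interval −0.92 to 0.01) and did not pass (adjusted p = 0.154). The difference between the hairpins was itself called (−0.995, SE 0.25, adjusted p = 0.00814), where 21% of all genes were called, 8.6% higher and 12.4% lower. With only the 8 shHIRA libraries in the fit it was −0.99 and did not pass (adjusted p = 0.0908). Thus the larger fall was in the group in which Hira was not called lower. The pooled change was −0.95 (adjusted p = 0.000534), and the transduction comparison gave −0.02. Without the 2 libraries of lowest mitochondrial share the change of Ncam1 in the libraries labelled shHIRA II was −1.30.

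Among other genes of neural adhesion, Nrcam fell by 0.89 in the pooled comparison (adjusted p = 0.0117) and by 1.18 in the libraries labelled shHIRA II. Fgfr1, a receptor that Ncam1 can bind, rose by 1.02 with shHIRA I (adjusted p = 0.000422) and stood at −0.08 in the libraries labelled shHIRA II. From this list of 11 genes, 7 were tested, and 1 rose and 2 fell in the pooled comparison, Ncam1 among the falls. The shares over all genes were 14.2% higher and 15.1% lower.

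Cdh19, a type II cadherin of Schwann cell precursors (chromosome 1, 110888326 to 110977584, minus strand, ENSMUSG00000047216.8), varied most of the 8 within shHIRA I. Parental libraries 1 to 4 stood at 79.8, 140, 116 and 50.2 CPM, shLuciferase at 67.8, 87.7, 67.2 and 111 CPM, and shScramble at 61.3, 145, 84.4 and 84.1 CPM. With shHIRA I the libraries ran from 8.89 CPM in replicate 3 to 129 CPM in replicate 2, with 34.1 and 55.2 CPM in replicates 1 and 4. With shHIRA II they stood at 49.4, 24.5, 29.6 and 26.2 CPM, below all control shRNA libraries, as 12.7% of all genes did (11.3% lay above). The SD was 91.2% of the mean with shHIRA I and 24.7 to 40.9% in the groups without a Hira hairpin.

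Cdh19 fell in the libraries labelled shHIRA II (−1.45, SE 0.47, adjusted p = 0.0243) and pooled (−1.04, SE 0.36, adjusted p = 0.0376). With shHIRA I it stood at −0.63 (interval −1.60 to 0.33, adjusted p = 0.354). The pooled call ended without any 1 of 10 libraries (adjusted p up to 0.0794): shLuciferase replicates 2 and 4, shScramble replicates 2, 3 and 4, shHIRA I replicates 1 and 4, and shHIRA II replicates 2, 3 and 4. Without shHIRA II replicates 2, 3 or 4 the call for that hairpin ended too (adjusted p = 0.0748, 0.0612 and 0.0716). Without shHIRA I replicate 2 the change with shHIRA I was −1.43 and passed (adjusted p = 0.0249). The difference between the hairpins was −0.81 (adjusted p = 0.284). Leaving out shHIRA I replicate 2 moved it to −0.02 (adjusted p = 0.983), and leaving out replicate 3 of that group moved it to −1.19, where it passed (adjusted p = 0.0331). Only Cdh24 was measurable beside Cdh19 among 13 listed type II cadherins (−0.04 pooled), while the type I cadherin Cdh2 rose by 1.53 with shHIRA I (adjusted p = 0.000894).

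The level of Cdh19 went with the share of mitochondrial mRNA over the 20 libraries. Pearson's r of log2 values was 0.92, and 0.88 after group means were subtracted, as a description of libraries that also share their groups. The same values were 0.75 and 0.71 for Ncam1, 0.60 and 0.32 for Mbp, and 0.37 and −0.07 for S100b. In every shHIRA II library the share (2.88 to 4.71%) lay below that of every control shRNA library (6.43 to 9.96%). A fit with the share as a covariate therefore cannot tell the share and that hairpin apart. With this share as a covariate the pooled change of Cdh19 was −0.06 (adjusted p = 0.890). Its change for the hairpin labelled shHIRA II turned in sign, from −1.45 to 0.0935 (adjusted p = 0.869), and its difference between the hairpins from −0.81 to 0.31. With the covariate the pooled change of Ncam1 was −0.67 (adjusted p = 0.0259), that of Mbp −0.72 (adjusted p = 0.0120) and that of S100b −0.87 (adjusted p = 0.0837). Without the 2 libraries of lowest share Cdh19 stood at −0.81 pooled (adjusted p = 0.0488).

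**Figure D3:**
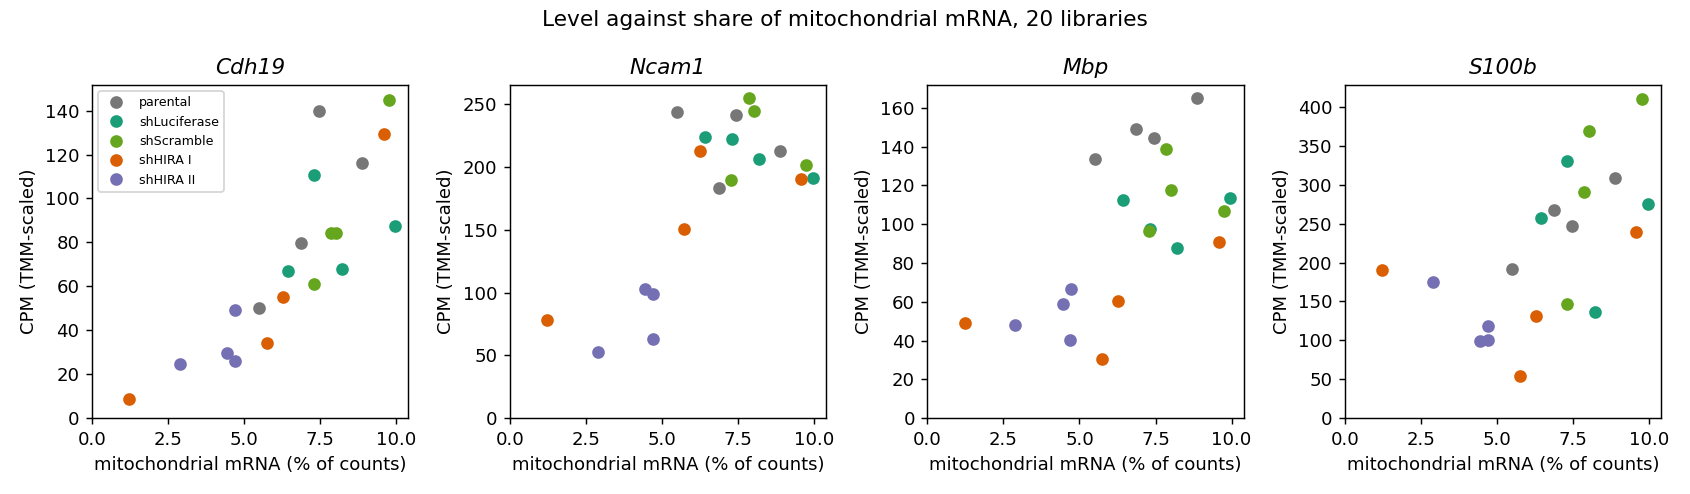
Level of Cdh19, Ncam1, Mbp and S100b (TMM-scaled CPM) against the share of counts from mitochondrially encoded mRNA, 1 point per library, coloured by group. Cdh19 runs from 8.89 CPM in the library with a share of 1.23% to 145 CPM in the library with 9.75%; S100b at the share of 1.23% stands at 190 CPM.

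S100b, a calcium-binding protein used as a marker of both Schwann and melanocytic cells (chromosome 10, 76253853 to 76261159, plus strand, ENSMUSG00000033208.7), was the most abundant member. Its RefSeq window, chr10:76253586-76253885 on the plus strand (GRCm38.p6), held 3 CG dinucleotides. A relation between CG number and change was not tested. Windows with 3 or fewer made up 31.4% of all. The capitals again mark CG.
S100b start: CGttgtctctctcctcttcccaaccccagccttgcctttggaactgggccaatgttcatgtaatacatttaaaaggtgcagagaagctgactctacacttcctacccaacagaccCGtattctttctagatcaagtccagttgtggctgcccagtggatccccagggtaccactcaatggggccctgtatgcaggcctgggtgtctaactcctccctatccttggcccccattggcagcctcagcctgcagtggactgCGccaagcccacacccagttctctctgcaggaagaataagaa

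Parental libraries 1 to 4 stood at 267, 246, 309 and 192 CPM for S100b. The shLuciferase libraries stood at 136, 275, 257 and 330 CPM and the shScramble libraries at 146, 410, 369 and 291 CPM, replicate 1 being lowest in both. With shHIRA I they stood at 53.6, 239, 190 and 132 CPM, and with shHIRA II at 118, 175, 99.1 and 101 CPM. Both shHIRA groups overlapped the control range through these low control libraries. S100b fell by 1.00 pooled (SE 0.27, adjusted p = 0.00844), to 49.9% of control, and by 1.16 in the libraries labelled shHIRA II (SE 0.34, adjusted p = 0.0139). With shHIRA I it stood at −0.84 (interval −1.56 to −0.13, adjusted p = 0.0849). That change passed without shLuciferase replicate 1 (−0.95, adjusted p = 0.0490), shScramble replicate 1 (−0.96, adjusted p = 0.0383) or shHIRA I replicate 2 (−1.14, adjusted p = 0.0309), and with DESeq2 (−0.85, adjusted p = 0.0481). Against parental cells S100b stood at −0.88 (adjusted p = 0.0471), a call that ended without any 1 of 13 libraries, those of parental cells included.

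The S100 family split. Of 16 listed genes with S100 names, S100b among them, 12 were tested, and 2 rose and 3 fell pooled. Over all genes 14.2% were called higher and 15.1% lower. S100a1, a close relative of S100b, fell by 0.96 (adjusted p = 0.00302), and S100a4, known from motile cells, by 1.60 (adjusted p = 0.000277). S100a4 fell by 2.72 in the libraries labelled shHIRA II and stood at −0.48 with shHIRA I, a difference that was called (adjusted p = 0.000725). S100a6 stood 2.39 higher, at means of 1.67 and 0.743 CPM with shHIRA I and shHIRA II. Without a Hira hairpin its group means were 0.118 to 0.363 CPM, under the filter's 0.561 CPM. Its change is therefore given as a description, without p. S100a10, the annexin partner, rose by 0.41 (adjusted p = 0.0136). With shHIRA I alone S100a8 stood 2.82 higher. S100a14 rose there by 2.09 (adjusted p = 0.00198), while for the hairpin labelled shHIRA II S100a16 fell by 0.67 (adjusted p = 0.0361). The mean of S100a8 was 2.29 CPM with shHIRA I and at most 0.366 CPM in the other groups. Since those lie under the filter's 0.561 CPM, no p is given for it.

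Fabp7, the brain fatty acid binding protein of immature glia (chromosome 10, 57784881 to 57788450, plus strand, ENSMUSG00000019874.11), differed from the other members. Parental libraries 1 to 4 stood at 26.1, 20.1, 22.3 and 7.86 CPM. The shLuciferase libraries stood at 13.2, 6.49, 5.95 and 10.6 CPM, and the shScramble libraries at 13.4, 12.4, 7.87 and 9.23 CPM. With shHIRA I they stood at 6.80, 4.18, 5.95 and 6.23 CPM, and with shHIRA II at 16.4, 11.2, 6.47 and 7.02 CPM. Parental replicates 1 to 3 lay above all other libraries and replicate 4 among them.

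The shHIRA groups pooled were lower in Fabp7 than parental cells, by 1.31 (SE 0.30, adjusted p = 0.00376), and not measurably lower than the control shRNA groups (−0.35, interval −0.89 to 0.19, adjusted p = 0.317). The control shRNA groups stood at 51.7% of parental cells (−0.95, SE 0.30), which did not pass (adjusted p = 0.0907). That change passed without parental replicate 4 (−1.21, adjusted p = 0.0276) and with DESeq2 (−0.95, adjusted p = 0.0459). By hairpin Fabp7 stood at −0.77 for the first and 0.06 for the second, and their difference did not pass (0.83, interval 0.06 to 1.60, adjusted p = 0.113). Of its family, Fabp5 fell by 0.94 pooled (adjusted p = 0.000422) from means of 288 and 305 CPM with the control hairpins. It fell by 1.44 in the libraries labelled shHIRA II, and Pmp2 fell with either hairpin. Of 13 listed carriers of fatty acids and retinoids, Fabp7 included, 5 were tested, and 2 fell and none rose pooled. Over all genes 15.1% were called lower and 14.2% higher.

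Ngfr, the p75 neurotrophin receptor gene (chromosome 11, 95568818 to 95587735, minus strand, ENSMUSG00000000120.6), was hardly detected. Estimated counts were 0 in 7 of the 20 libraries and at most 5.91, in shHIRA II replicate 3. Its highest level was 0.308 CPM and no library reached the filter's 0.561 CPM, so no test was made and no fold is given. The other neurotrophin genes could be measured in part: of 18 listed, 9 were tested, and 2 fell pooled, where 15.1% of all genes were called lower. Sort1, sortilin, a partner of p75 in binding proneurotrophins, fell by 1.31 (adjusted p = 8.42e-06). Its means were 421 CPM with shLuciferase, 459 CPM with shScramble, 239 CPM with shHIRA I and 131 CPM for shHIRA II. Ntrk3, the receptor for neurotrophin-3, fell by 2.18 (adjusted p = 0.000208), and its means in the same order were 13.3, 13.7, 5.49 and 1.60 CPM. In parental cells the mean of Ntrk3 was 4.39 CPM, below both control hairpins. Against parental cells its pooled change was −0.57 and did not pass (adjusted p = 0.360). Rtn4r, the Nogo receptor, which can pair with p75, rose by 0.68 with shHIRA I (adjusted p = 0.0159) and fell by 0.89 in the libraries labelled shHIRA II (adjusted p = 0.00300). Its mean was 14.5 CPM with shHIRA I, near the 13.8 CPM of parental cells, against 8.97 and 9.11 CPM with shLuciferase and shScramble.

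**Figure D4:**
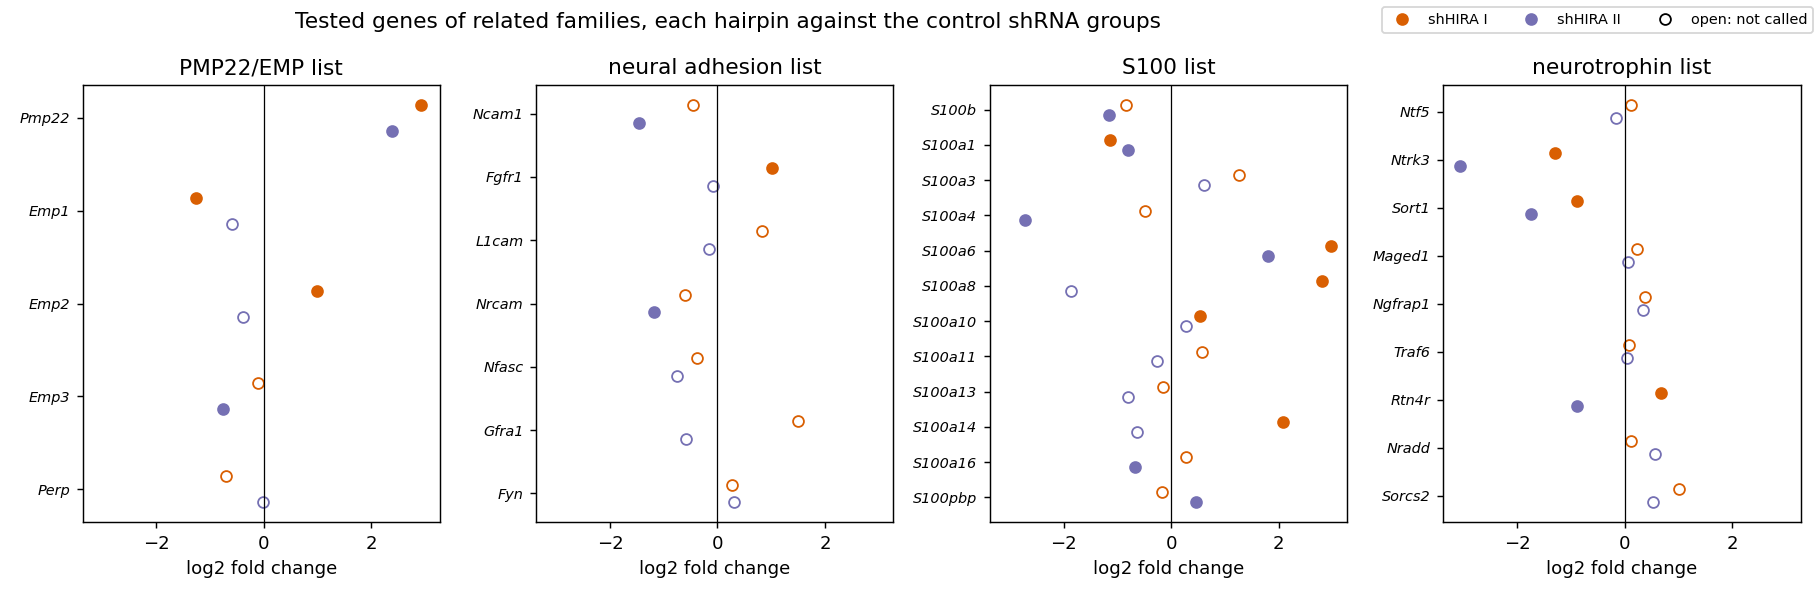
Log2 fold change of the tested genes in 4 related lists, each shHIRA group against the averaged control shRNA groups; filled points are called by edgeR, open points are not. Pmp22 lies at 2.93 and 2.38, above Emp1, Emp2 and Emp3, and S100a4 lies at −0.48 with shHIRA I and −2.72 with shHIRA II.

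Among regulators of the Schwann lineage, 15 transcription factors of 16 listed were tested, and 4 fell and 1 rose pooled, where 29.3% of all genes were called. Sox2, of immature Schwann cells, fell by 0.66 (adjusted p = 0.00492), the inhibitor Id2 by 0.70 (adjusted p = 0.0152), Id4 by 0.74 (adjusted p = 0.0409) and Tfap2a, of the neural crest, by 0.56 (adjusted p = 0.00489), the last at −1.17 in the libraries labelled shHIRA II and 0.06 for shHIRA I. Pou3f1, which starts promyelination, stood 1.18 higher at means at or below 1.19 CPM. Its means without a Hira hairpin were 0.248 to 0.505 CPM, under the filter's 0.561 CPM, so no p is given. Jun, of repair Schwann cells, rose with shHIRA I (0.70, adjusted p = 0.000322). Nab2, a partner of Egr2, rose by 0.37 (adjusted p = 0.0253) and Zeb2, needed for Schwann cell maturation, fell by 0.90 (adjusted p = 0.00759), both for the hairpin labelled shHIRA II. Nfatc4 was listed at 0 with shHIRA I and in parental cells. Its means were 0.465 and 0.449 CPM with the control hairpins and 0.993 CPM with shHIRA II. Only the last of these means reached the filter's 0.561 CPM, so neither fold nor p is given. In neuregulin signalling 8 genes of 10 listed were tested, and Bace1, the protease that cleaves neuregulin, fell by 1.14 (adjusted p = 0.000143) while none rose pooled. With shHIRA I the adaptor Gab1 rose by 0.79 (adjusted p = 0.00371) and the protease Adam17 by 0.40 (adjusted p = 0.0319). Erbb3, the neuregulin receptor, stood at −0.48 (adjusted p = 0.0685). Among 10 tested genes of 15 listed for precursors and immature cells, the filament genes Nes and Vim went apart, Nes rising by 0.80 (adjusted p = 0.000331) and Vim falling by 0.89 (adjusted p = 0.000195). Cdh2 and the guidance gene Ntn1 rose pooled (0.83 and 0.45) and Gas7 fell by 0.73 in that list. With shHIRA I Cdh2 and Ntn1 stood at 1.53 and 0.94, against 0.12 and −0.04 in the libraries labelled shHIRA II. For both genes the difference between the hairpins was called (adjusted p = 0.00773 and 0.00224 by edgeR). Gdnf, a neurotrophic factor, rose by 1.31 with shHIRA I (adjusted p = 0.00667).

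With transduction, control shRNA against parental cells, edgeR called 0 of 7 members, 2 at an unadjusted p under 0.05 (Mbp and Fabp7), and DESeq2 called 1 (Fabp7) and the fit on only the groups compared called 1 (Mbp), where 3.62% of all genes were called, 2.05% higher and 1.57% lower. Between shScramble and shLuciferase edgeR and DESeq2 called 0 members, and 0 had an unadjusted p under 0.05, where 0% of all genes were called. Against parental cells the pooled shHIRA groups had 1 member higher (Pmp22) and 4 lower (Mbp, Ncam1, S100b, Fabp7), where 24.5% of all genes were called, 12.5% higher and 12% lower. Cdh19 just missed there (−1.17, adjusted p = 0.0518), and passed with DESeq2 (adjusted p = 0.0324).

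In order of group means, neighbouring groups were seldom distinct. For Mbp the order was parental, shScramble, shLuciferase, shHIRA I, shHIRA II, with a called step only from shLuciferase to shHIRA I (0.83, adjusted p = 0.0267). For Pmp22 the called step was from shHIRA II to shLuciferase (2.18, under the limit of its filter), and for Ncam1 from shHIRA I to shHIRA II (0.995). No step between neighbours was called for S100b, Cdh19, Fabp7 or Cnp.

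Within shHIRA I the members did not share 1 extreme library. Replicate 2 was highest for 4 of the 7 tested members, Mbp, S100b, Cdh19 and Cnp, and replicate 1 was lowest for 3, Mbp, S100b and Cnp. Replicate 3 was lowest for Ncam1 and Cdh19 and highest for Pmp22. After group means were subtracted, S100b and Cnp correlated most closely (r = 0.76 over 20 libraries), then S100b and Mbp (0.60); S100b and Ncam1 did not go together (−0.16). The genes most like each member over the 20 libraries, by Pearson's r of log2 CPM among all genes tested, were Fkbp14 (0.96), Atp6v0e2 (0.96) and Scd2 (0.95) for Mbp, and Adh7 (0.93), Col5a1 (0.91) and Ajuba (0.91) for Pmp22. They were Sytl2 (0.96), Gnptab (0.96) and E330009J07Rik (0.96) for Ncam1, Lonp2 (0.95), Smim14 (0.95) and Ndrg2 (0.94) for S100b, and Zbtb1 (0.95), Eif5a2 (0.95) and Trove2 (0.94) for Cdh19. They were Npm1 (0.85), Rps14 (0.81) and Anp32e (0.79) for Fabp7, and Ccdc13 (0.86), Txndc15 (0.86) and Car14 (0.84) for Cnp. After group means were subtracted the closest gene of each stood at 0.83 for Mbp, 0.68 for Pmp22, 0.90 for Ncam1, 0.94 for S100b and Cdh19, 0.86 for Fabp7 and 0.84 for Cnp.

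Markers of other cell types moved as well, and their part in the members' changes was not tested. The 14 melanocyte markers summed to 3026 to 5033 TPM in the control shRNA libraries, 1524 to 3943 TPM with shHIRA I and 876 to 1479 TPM with shHIRA II. Pooled, 9 of 13 tested fell and none rose, where 15.1% of all genes were called lower and 14.2% higher. Fibroblast markers, 10 genes with Twist1 at 0, summed to 23.0 to 48.7 TPM in the control shRNA libraries, 56.0 to 122 TPM with shHIRA I and 7.89 to 15.9 TPM with shHIRA II. Neuronal markers (10 genes, control 18.2 to 42.8 TPM) summed to 19.7 to 40.0 TPM with shHIRA I and 51.9 to 60.5 TPM with shHIRA II. This sum mainly follows Tubb3 (median 20.0 TPM over the 20 libraries), as 7 of the 10 stayed under 1 TPM in every library. In the libraries labelled shHIRA II Tubb3 rose by 1.16 (adjusted p = 0.00271 by edgeR). Syp, next in median (1.88 TPM), fell there by 1.06 (adjusted p = 0.00972). Oligodendrocyte markers (8 genes, Mog at 0 and 7 under 1 TPM in every library) reached at most 11.9 TPM in sum, nearly all of it Myrf. Endothelial markers (8 genes) summed to 23.7 to 36.3 TPM in control libraries, 15.1 to 81.5 TPM with shHIRA I and 5.85 to 11.9 TPM with shHIRA II. Vwf had by far the highest median of these (23.2 TPM over the 20 libraries), so the sum mainly follows 1 gene. In the libraries labelled shHIRA II Vwf stood at −1.86. The other tested endothelial markers, Pecam1 and Tek, stood there at 0.62 and 1.23 and were not called. Keratinocyte markers (10 genes, Krt1 and Epcam at 0) stayed at or below 9.78 TPM and leukocyte markers (9 genes with a row) at or below 24.5 TPM in sum, with Ptprc at most 0.128 TPM.

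RefSeq windows were found for 5 of the 8 members, 8 windows in all, of which the third and the fourth of Pmp22 overlap. Windows for Mbp, Ncam1 and Cdh19 were not used here. The letters ACAAAG or ACAATG, cores bound by SOX factors and searched on both strands and alike in their first letters, occurred in 1 of the 8, that of Cnp, and in 28.6% of all 32851 windows. The CG dinucleotides per window were 23 for Ngfr, 17 for Cnp and 6 for Fabp7.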

How the data were processed

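Poly(A) RNA from 20 melb-a cultures had been made into stranded libraries, per the labels' protocols. The tools bcl2fastq, kallisto and edgeR and the build mm10 are named, per the submitters' processing notes; for versions, annotation and strand setting nothing is given in the sources used here. The authors deposited estimated counts per gene (expected counts, not whole numbers) and TPM, scaled per library by the authors. The deposited counts equal TPM times a fixed gene length and a library factor (log2 deviation within 0.001 for 12441 of 12479 genes compared), so isoform shifts do not enter them.

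Columns were assigned by name. Control columns without a hairpin were taken as parental and shHIRA columns without a numeral II as shHIRA I, since no other group was left. Counts were rounded and tested with edgeR 4.0.16 (R 4.3.3): TMM scaling, the default filter by group, a group-means model over all 20 libraries with 15 residual degrees of freedom, quasi-likelihood F test and Benjamini-Hochberg adjustment over 13541 genes at 0.05. Compared were the shHIRA groups, averaged or singly, with the averaged control shRNA groups, shHIRA II minus shHIRA I, control shRNA minus parental, shScramble minus shLuciferase, and both shHIRA groups minus parental. SE is from the fit; intervals are 95%. CPM values use TMM library sizes; library totals of 14.95 to 20.7 M counts set the precision. On simulated data for the pooled comparison (13541 genes) 60% of 2-fold and 94% of 4-fold changes were recovered. Only 100 genes were changed at each size there, whereas 29.3% of genes were called in the data, so these rates need not hold for the data. Alternatives were RLE factors, DESeq2 1.42.0, no filter, limma 3.58.1 on log2(TPM + 1) or log2(TPM + 0.1), the replicate number as a block, only the groups compared in the fit, the mitochondrial share as a covariate, and libraries left out.

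Members and lists were chosen with earlier results of these data known. Some listed genes are not reported here. Named genes are the members, called genes of the lists (at most 4 per list and direction, largest first), and the 3 genes most correlated with each tested member (log2 CPM, prior count 2). Positions are from GENCODE M21 (GRCm38) and promoter windows from RefSeq (GRCm38.p6).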

Additional observations from a re-analysis of the deposited data

Results flagged for a closer look

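Cnp in shScramble replicate 3 stood at 60.9 CPM, apart from the other libraries of its group at 49.4 to 50.1 CPM. Ngfr in parental replicate 2 stood at 0.110 CPM where the other parental libraries were at 0, a difference of 2 counts. Such a distant library was found in 2 of 40 groups of 4, and chance gives about 1 in 20. The change of Ncam1 differed between the hairpins, by −0.995 on the log2 scale as shHIRA II minus shHIRA I (adjusted p = 0.00814 by edgeR); the means were 79.2 CPM and 158 CPM.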

How the results depend on the processing

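The number of members called was within 1.5 times of the values above under RLE factors, no filter, limma on TPM with either pseudocount and the replicate block, in all 7 comparisons. Under the covariate of mitochondrial share 3 members were called in the pooled comparison and 2 in the libraries labelled shHIRA II. With only the groups compared in the fit it was 1 with shHIRA I, where Pmp22 was no longer tested, 0 for shHIRA II minus shHIRA I and 1 for transduction, and with DESeq2 it was 1 for transduction. Leaving out 1 library gave 4 to 6 calls pooled and against parental cells, 2 to 4 with shHIRA I (4 without shHIRA I replicate 2), 4 to 5 in the libraries labelled shHIRA II, 1 to 2 between hairpins (2 without shHIRA I replicate 3), 0 to 1 for transduction (1 without parental replicate 4) and 0 between control hairpins.

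Under the covariate the sign of Cdh19 turned, from a call of −1.45 to 0.0935 in the libraries labelled shHIRA II and from −0.81 to 0.31 between hairpins. Values that had not passed turned as well: Cdh19 was −0.0703 for shScramble minus shLuciferase, and Mbp was 0.0519 between hairpins. On log2(TPM + 1) and log2(TPM + 0.1), Ncam1 was 0.0589 and 0.0600 and Cdh19 0.00416 and 0.00642 for transduction, and Ncam1 −0.0219 and −0.0224 between the control hairpins. With 1 library left out, Fabp7 ranged from −0.24 to 0.25 in the libraries labelled shHIRA II. Between hairpins Mbp ranged from −0.30 to 0.19 and Cnp from −0.13 to 0.20. For transduction Pmp22 ranged from −0.17 to 0.56, Ncam1 from −0.0977 to 0.0274, Cdh19 from −0.34 to 0.11 and Cnp from −0.00264 to 0.19. Between control hairpins Pmp22 ranged from −1.46 to 0.0218 and Cdh19 from −0.12 to 0.34. The cause of these shifts was not tested.

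Replicate numbers shared by the groups were not taken to pair the samples, since the labels name no shared batch. The correlations cannot settle whether a batch was shared. Deviations from group means correlated above 0.1 in 17 of 40 pairs with the same number (range −0.31 to 0.42) and in 16 of 120 others, and 13 of 20 libraries correlated best, on average, with their own number, which is a hint from the data and not from the design. With the replicate block 5 members were called pooled, 3 with shHIRA I (S100b passed, −0.91, adjusted p = 0.0260), 5 for shHIRA II and 6 against parental cells (Cdh19 passed, −1.22, adjusted p = 0.0373). Pmp22, Ngfr and other genes near 1 CPM are limited by depth.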
